A study of Mus musculus with 2207 samples.

Results

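The 8 genes described here lie together on mouse chromosome 7, in the imprinted region whose human counterpart is lost or silenced in Prader-Willi and Angelman syndromes. They are *Snrpn*, *Snurf*, *Ndn*, *Magel2*, *Mkrn3*, *Peg12*, *Ube3a* and *Snhg14*, taken by symbol from a table of 52636 genes, and all 8 were found. They were read in 2207 single nuclei of adult brain cortex, sequenced as total RNA by RamDA-seq, a full-length method that also captures RNA without a poly(A) tail. The measurements are RPKM (read counts scaled by gene length and by the mapped reads of the nucleus), so levels can be set side by side between genes.

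All mice were C57BL/6 (the J substrain, by the study's methods), were given tamoxifen at 3 weeks of age (100 mg/kg, 2 times) and were studied at 14 weeks. Cortex of 3 mice per genotype was pooled, and 6 pools resulted, with 362 to 371 nuclei each. On 96-well plates there was a WT pool (*Ehmt1*+/+) and an *Ehmt1*Δ/+ pool, neither labelled with a transgene. On 384-well plates there were 4 pools, all carrying *Ehmt1* iTg, an inducible *Ehmt1* transgene at Rosa26 that makes FLAG-tagged GLP after Cre recombination. The WT (*Ehmt1*+/+) and *Ehmt1*Δ/+ pools among them were labelled as lacking *CamKII-CreER*, and so as having no active transgene, although the study's text describes all 4 with it. The iTg pool (*Ehmt1*+/+) and the *Ehmt1*Δ/+; iTg pool carried *CamKII-CreER*, whose promoter drives Cre in forebrain neurons only. *Ehmt1* encodes GLP, which with its partner G9a methylates lysine 9 of histone H3, a mark of silenced chromatin.

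The labels do not say which mouse a nucleus came from. Each pool therefore counts as 1 sample, and every p-value below measures only the spread between pools. *Ehmt1* RNA went against the labels. Its neuron mean was 18.7 RPKM in the WT pool and 31.2 in the *Ehmt1*Δ/+ pool on 96-well plates, 19.5 and 31.7 on 384-well plates, and 20.7 and 33.9 with the transgene active. It was higher, not lower, in all 3 pools labelled *Ehmt1*Δ/+, so those pools are called "labelled *Ehmt1*Δ/+" throughout.

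In this region most genes are read from the paternal chromosome alone. *Snrpn* and *Snurf* share 1 transcript, which encodes the spliceosomal protein SmN and the small protein SNURF, and a long RNA from the same unit, *Snhg14*, hosts many small nucleolar RNAs (snoRNAs) and runs on into *Ube3a* on the opposite strand. *Ube3a*, an E3 ubiquitin ligase, is the exception: in neurons it is read from the maternal copy, since the antisense RNA silences the paternal one. *Ndn* (necdin) and *Magel2* are intronless MAGE genes, *Mkrn3* is an intronless ring-finger gene linked to the timing of puberty, and *Peg12* is a small intronless gene of the Frat family. G9a is known to take part in keeping the maternal copies silent.

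By the Gencode annotation on GRCm38, the genes run along chromosome 7 as follows. *Ube3a* (ENSMUSG00000025326.12) covers chr7:59228750-59311536 on the plus strand and *Snhg14* (ENSMUSG00000100826.6), a processed transcript, covers chr7:59307924-59975759 on the minus strand, so the 2 overlap at the 3′ end of *Ube3a*. *Snrpn* (ENSMUSG00000102252.5) covers chr7:59982495-60140219 and *Snurf* (ENSMUSG00000102627.1) lies inside it at chr7:59995449-60005049, both on the minus strand. Further along lie *Ndn* (ENSMUSG00000033585.5, chr7:62346569-62350262, plus strand) and *Magel2* (ENSMUSG00000056972.6, chr7:62377010-62381640, plus strand). *Mkrn3* (ENSMUSG00000070527.3, chr7:62417593-62420139) and *Peg12* (ENSMUSG00000070526.2, chr7:62461871-62464510) follow on the minus strand. The study's methods name default counting settings, which ignore strand and give whole reads, but most values of *Snrpn*, *Snurf*, *Ube3a* and *Snhg14* do not come out as whole reads, so the exact settings are uncertain. Without strand, reads of *Ube3a* and of its antisense partner cannot be told apart where they overlap, and the division of reads between *Snrpn* and *Snurf* is uncertain.

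Promoters of *Snrpn* and *Snurf*, *Ndn*, *Magel2* and *Mkrn3*, the genes on which the cell type results turn, are printed here over the 300 bases around the start site (RefSeq, GRCm38.p6), each read 5′ to 3′ along its gene. Capitals mark CGCATGCG, the core of the consensus site of NRF1, a factor of housekeeping and mitochondrial genes. The 8 letters are their own reverse complement, so both strands were searched at once. *Snurf* and the downstream *Snrpn* start are shown first (chr7:60005150-60005449, minus strand), then *Ndn* (chr7:62348027-62348326, plus strand), *Magel2* (chr7:62376729-62377028, plus strand) and *Mkrn3* (chr7:62420104-62420403, minus strand).
Snurf/Snrpn: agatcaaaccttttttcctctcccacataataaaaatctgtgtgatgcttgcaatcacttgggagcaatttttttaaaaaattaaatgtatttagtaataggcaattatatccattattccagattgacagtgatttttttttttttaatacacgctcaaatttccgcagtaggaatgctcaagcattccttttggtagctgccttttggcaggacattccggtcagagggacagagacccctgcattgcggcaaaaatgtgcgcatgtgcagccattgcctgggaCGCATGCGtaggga
Ndn: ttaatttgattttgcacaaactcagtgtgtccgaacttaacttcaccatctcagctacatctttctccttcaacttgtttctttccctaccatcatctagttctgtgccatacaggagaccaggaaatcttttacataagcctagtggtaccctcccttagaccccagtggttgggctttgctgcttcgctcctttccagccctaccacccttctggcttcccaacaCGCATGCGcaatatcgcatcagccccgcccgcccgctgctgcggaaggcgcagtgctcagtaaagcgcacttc
Magel2: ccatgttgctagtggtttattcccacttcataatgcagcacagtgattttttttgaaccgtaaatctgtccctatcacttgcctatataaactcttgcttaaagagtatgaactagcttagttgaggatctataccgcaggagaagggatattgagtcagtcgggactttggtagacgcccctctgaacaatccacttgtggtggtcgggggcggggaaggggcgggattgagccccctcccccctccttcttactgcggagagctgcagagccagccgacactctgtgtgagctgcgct
Mkrn3: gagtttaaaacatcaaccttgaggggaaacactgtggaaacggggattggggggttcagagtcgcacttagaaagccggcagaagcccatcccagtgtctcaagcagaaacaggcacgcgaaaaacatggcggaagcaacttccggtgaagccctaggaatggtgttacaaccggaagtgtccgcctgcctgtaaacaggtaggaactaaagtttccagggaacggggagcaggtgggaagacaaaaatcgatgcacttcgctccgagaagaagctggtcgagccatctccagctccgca

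CGCATGCG was found in 7 of the 11 promoters listed for the locus genes, belonging to 4 of the 8 symbols (*Snrpn*, *Snurf*, *Snhg14* and *Ndn*), and in 615 of 32851 promoters of the same length, or 1.87%. Several of the 7 are the same or related starts: the start listed for *Snhg14* is also the farthest upstream start of *Snrpn*, and the start of *Snurf* is also one of *Snrpn*. The promoters of *Magel2*, *Mkrn3*, *Peg12* and *Ube3a* did not hold these letters in this window. CpG dinucleotides, the sites of imprinted DNA methylation, numbered 7 in the *Snurf* promoter, 11 in *Ndn*, 10 in *Magel2*, 15 in *Mkrn3*, 12 in *Peg12* and 29 in *Ube3a*, and 2, 3 and 4 at the start of *Snhg14* and the other upstream starts of *Snrpn*, against a median of 7 over all promoters. *Ube3a* thus had the richest promoter of the locus, and 87.1% of promoters held fewer CpGs.

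The nuclei carried the labels neuron (1664), oligodendrocyte (397) and microglia (16 to 36 in each pool), which the authors set by clustering, so levels are compared between labels without a test. Markers of each type fitted the labels. The summed level of *Snap25*, *Rbfox3*, *Syt1* and *Meg3* ran from 893 to 1067 RPKM in the neuron pools, from 6.20 to 60.7 in microglia and from 7.62 to 51.7 in oligodendrocytes. Neurons had a median of 323273 to 397880 reads per nucleus in the 6 pools, whereas glia had 441701 to 510640 on 96-well plates and 39940 to 54877 on 384-well plates. The WT pool on 96-well plates stood apart: *Snap25*, a neuronal marker, averaged 51.7 RPKM in its microglia and 41.3 in its oligodendrocytes, against 0.65 to 9.85 in glia of the other 5 pools, and only 26.5% of its neurons had *Slc17a7* with no *Gad1*, against 59.3 to 75.2% in the others.

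Neurons held by far the most RNA of the *Snrpn* unit. Pool means are given throughout in the order WT and labelled *Ehmt1*Δ/+ on 96-well plates, then WT, labelled *Ehmt1*Δ/+, iTg and labelled *Ehmt1*Δ/+; iTg on 384-well plates. *Snhg14*, the snoRNA host, was the most abundant of the 8, with neuron means of 144.5, 154.4, 130.1, 144.4, 153.6 and 147.8 RPKM. It differed little between pools, and the SD across nuclei of a pool was 35.9 to 43.5. All 1664 neurons had *Snhg14* above 0. In glia it was low: 1.95, 2.92, 0.145, 0.561, 0.708 and 1.17 RPKM in microglia and 4.37, 4.86, 0.668, 2.78, 1.66 and 2.30 in oligodendrocytes. These levels were 0.112 to 1.89% of the neuron mean of the same pool in microglia and 0.513 to 3.15% in oligodendrocytes, so the lowest neuron pool was above every glial pool.

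*Snrpn* averaged 70.6, 71.04, 43.02, 48.9, 45.5 and 60.2 RPKM in neurons, with an SD across nuclei of 17.01 to 23.98, and was above 0 in 1662 of 1664 neurons. Both 96-well pools were above all 4 384-well pools. Oligodendrocytes came next with 16.1, 12.01, 8.05, 9.27, 8.60 and 12.9 RPKM, a steady 16.9 to 22.8% of the neuron mean of the same pool. Microglia were lowest in every pool, with 11.7, 3.23, 0, 0.193, 1.47 and 1.03 RPKM. The neuron pools overlapped with no glial pool, while the highest microglial value, that of the WT pool on 96-well plates, reached into the oligodendrocyte range. Without that pool, microglia (at most 3.23) and oligodendrocytes (at least 8.05) did not overlap for *Snrpn*.

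*Snurf*, counted over a far shorter stretch, followed the same order, with neuron means of 53.9, 48.1, 31.9, 28.1, 28.8 and 31.9 RPKM and oligodendrocyte means of 15.3, 12.6, 5.91, 13.7, 8.64 and 9.21. In microglia it averaged 10.1, 3.42, 0, 1.92, 0 and 0 RPKM. Glial values on 384-well plates rest on very few reads. The oligodendrocytes of those 4 pools held 5, 6.65, 11.3 and 8.97 *Snurf* reads in total. Without the nucleus with the highest value, the 8.64 RPKM of the iTg pool fell to 3.73. The 1.92 RPKM in microglia came from 1 nucleus.

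*Ube3a* averaged 55.4, 61.8, 19.7, 23.7, 20.6 and 40.97 RPKM in neurons and was above 0 in all 1664. The labelled *Ehmt1*Δ/+; iTg pool was well above the other 3 384-well pools and below both 96-well pools. Microglia had 12, 14.7, 1.96, 2.84, 1.61 and 4.74 RPKM, and oligodendrocytes had 10.01, 9.81, 1.21, 1.72, 1.25 and 2.72. Microglia exceeded oligodendrocytes in each of the 6 pools, the reverse of the order for *Snrpn* and *Snhg14*. Glial *Ube3a* was 7.78 to 23.7% of the neuron level in microglia and 6.08 to 18.1% in oligodendrocytes, a larger share in every pool than for *Snhg14*.

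**Figure D1:**
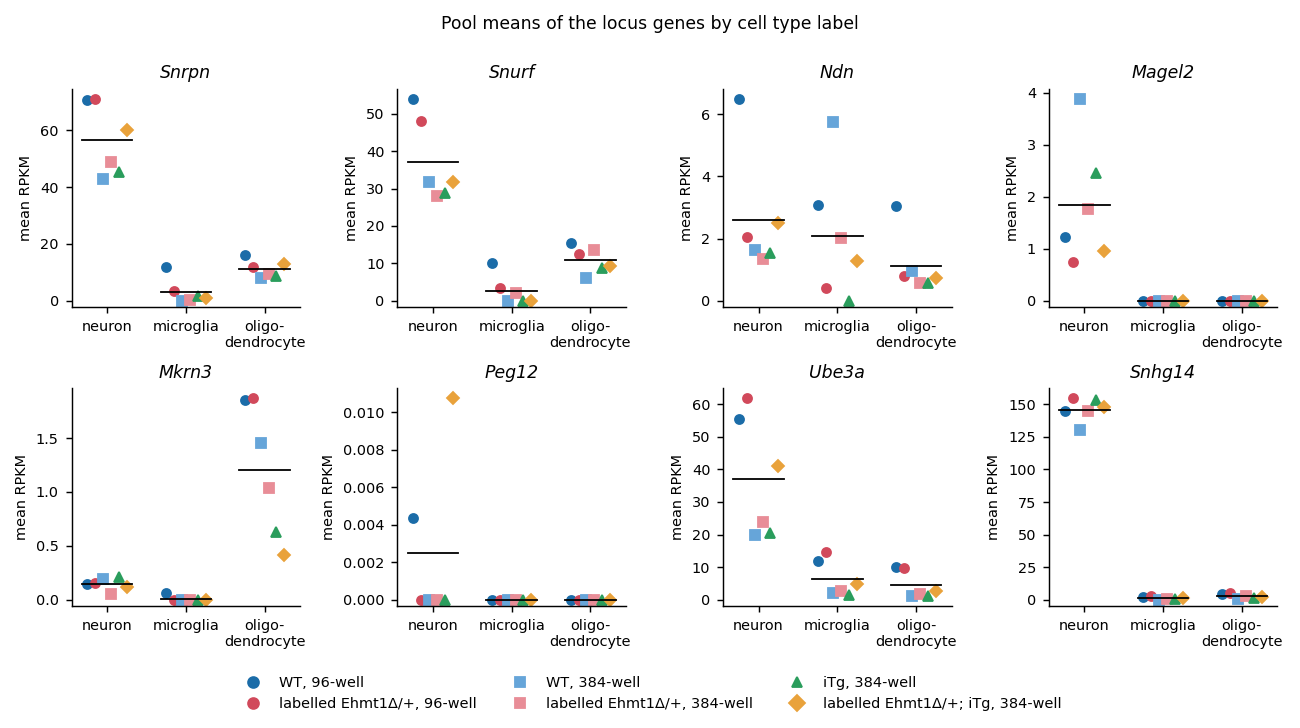
Mean RPKM (linear axis, own scale for each gene) of the 8 locus genes in nuclei labelled neuron, microglia or oligodendrocyte. Each point is 1 pool and each bar the mean of the 6 pools; *Snhg14* neuron means sit between 130.1 and 154.4 with all glial means under 5, whereas the bar of *Mkrn3* is highest in oligodendrocytes, where 1 nucleus sets the point of the iTg pool.

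The MAGE gene *Ndn* was low, and its neuron means were 6.49, 2.04, 1.64, 1.33, 1.54 and 2.50 RPKM. The WT pool on 96-well plates was above the other 5 by a wide margin. *Ndn* was above 0 in 913 of 1664 neurons, or 85.4, 53.96, 51.9, 43.5, 43.6 and 54.6% by pool. After each nucleus was thinned to 298761 reads on 96-well plates or 48585 on 384-well plates, shallower nuclei left out, these shares were 87.6, 53.7, 19.7, 15.8, 17.8 and 26.1%, so they can be compared only within a plate format. Oligodendrocytes had 3.04, 0.796, 0.963, 0.568, 0.582 and 0.730 RPKM, and microglia had 3.07, 0.405, 5.75, 2.03, 0 and 1.28. The 5.75 RPKM came from 1 of 16 microglia, and the other 5 pools, the WT pool on 96-well plates (17 of 36) apart, had 0 to 3 microglia above 0. For *Ndn*, therefore, the ranges of the 3 cell types overlapped.

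*Magel2*, the neighbour of *Ndn*, was detected in neurons alone at this depth. It was above 0 in 12.2% of 1664 neurons, in 0 microglia of any pool, which over the 6 pools allows a share of up to 2.05%, and in 0 of 397 oligodendrocytes, which allows up to 0.756%. Intervals and limits of this kind cover counting error only, and not the spread between mice or pools. RamDA-seq reads also carry no molecular identifiers. Glia on 384-well plates were shallow (medians of 39940 to 54877 reads), so a 0 there does not show absence. Its neuron means were 1.22, 0.744, 3.88, 1.75, 2.46 and 0.961 RPKM, and 13.8, 11.7, 17.9, 9.48, 9.09 and 11.4% of neurons were above 0. The spread was wide because few nuclei carried the gene: 1 neuron of the iTg pool reached 354 RPKM.

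*Mkrn3* went the other way. Oligodendrocytes averaged 1.85, 1.87, 1.45, 1.03, 0.632 and 0.412 RPKM, against 0.149, 0.155, 0.196, 0.0501, 0.211 and 0.122 in neurons, so oligodendrocytes were higher in each of the 6 pools. In the iTg and labelled *Ehmt1*Δ/+; iTg pools this order rests on few nuclei: without the nucleus with the highest value, oligodendrocytes stood at 0 and 0.14 RPKM there, beside 0.176 and 0.0904 in neurons. In the other 4 pools they stood at 0.324 to 1.63 without it. It was above 0 in 38 of 397 oligodendrocytes, 60 of 1664 neurons and a single microglial nucleus. By pool, 13.7, 21.1, 11.6, 4.35, 1.41 and 2.99% of oligodendrocytes were above 0, and 13.7, 19.98, 14.7, 8.27, 2.04 and 0% after thinning within each plate format, which left out 0 to 3 shallower nuclei a pool on 96-well and 22 to 30 on 384-well plates. The last gene, *Peg12*, was above 0 in only 2 of 1664 neurons and in no glial nucleus.

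Neuron levels differed between the pools of the 2 plate formats, and by unequal amounts across members. The mean of the 96-well pools over that of the 384-well pools was 2.23 for *Ube3a*, 2.44 for *Ndn* (1.17 without the WT pool on 96-well plates), 1.69 for *Snurf* and 1.43 for *Snrpn*. *Snhg14* was level at 1.04 and *Magel2* was lower on 96-well plates, at 0.433. Neuronal markers that are no members moved both ways too (*Snap25* 1.68, *Rbfox3* 0.532, *Meg3* 0.929). The formats also differ in the transgene their pools carry, and the 2 cannot be told apart, so genotypes are compared within a format.

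The other annotated genes between the outer ends of the 8 were mostly small RNAs, 210 snoRNAs and 20 miRNAs among them. Of the snoRNAs, 87.1% reached at least 1 RPKM in every neuron pool, and 98.9% of those were at 0 in all 6 microglia pools. Summed over the snoRNAs, neurons had 4648, 4923, 2943, 2871, 2557 and 3506 RPKM. The 4 with the highest neuron means were *Gm24966*, *Gm26498*, *Gm22496* and *Snord64*. *Snord64*, which lies between *Snhg14* and *Snrpn* on the minus strand, averaged 181.6, 223.9, 52.8, 41.7, 35.9 and 126.3 RPKM in neurons. Like their host *Snhg14* the snoRNAs were neuronal, but unlike *Snhg14* their sum was higher on 96-well plates. Reads of a snoRNA and of the host RNA around it cannot be told apart here.

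Within neurons, nuclei were divided by the larger of *Slc17a7*, the vesicular glutamate transporter of excitatory neurons, and *Gad1*, the GABA-synthesising enzyme of inhibitory ones. This gave 1324 excitatory and 333 inhibitory neurons, and left out 7 with neither. A marker not used in the division fitted it: *Slc32a1*, the vesicular GABA transporter, averaged 0.0399 to 0.556 RPKM in excitatory and 22.5 to 43.01 in inhibitory neurons of the 6 pools. The classes were compared with limma on log2(pool mean + 0.1), with the pool as a block. *Peg12* was too rare to be tested. Of the other 7 members, *Mkrn3*, *Magel2*, *Ndn*, *Snhg14* and *Snrpn* passed the threshold of 0.05, all higher in inhibitory neurons, after Benjamini-Hochberg adjustment over all genes. *Mkrn3* and *Magel2* reached the minimum for testing, above 0 in 10% of nuclei, in inhibitory neurons alone, so a gene admitted in that way had to differ. The classes differ at very many genes: 10396 of 25968, or 40%, passed, and 21% of all genes passed in this direction.

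The inhibitory means of *Mkrn3* were 0.518, 0.912, 0.737, 0.206, 0.986 and 0.549 RPKM, whereas the excitatory means lay between 0.00814 and 0.0295, so every inhibitory pool was above every excitatory one. The log2 difference was 2.54 ± 0.25 (SE, n = 6 pools, limma adjusted p = 0.00030), and it moved with the scale, from 0.30 with the mean of log2(RPKM + 1) to 4.37 with 0.01 added in place of 0.1. It was above 0 in 51 of 333 inhibitory neurons (15.3%) and in 9 of 1324 excitatory ones (0.680%).

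*Magel2* averaged 3.30, 2.47, 12.4, 7.34, 3.71 and 3.07 RPKM in inhibitory neurons and 0.544, 0.389, 0.948, 0.593, 2.07 and 0.503 in excitatory neurons. Every inhibitory pool was above every excitatory pool here too, and the excitatory value of 2.07 belongs to the iTg pool with the single nucleus at 354 RPKM. The log2 difference was 2.50 ± 0.35 (SE, n = 6 pools, limma adjusted p = 0.0014), and 0.99 with the mean of log2(RPKM + 1). With no filter on low values both genes still passed (limma adjusted p = 0.0039 for *Magel2* and 0.00099 for *Mkrn3*). *Magel2* was above 0 in 36.3% of 333 inhibitory neurons and in 5.82% of 1324 excitatory ones.

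*Ndn* averaged 11.4, 3.32, 2.72, 3.29, 2.12 and 4.54 RPKM in inhibitory neurons and 4.90, 1.78, 1.28, 0.907, 1.38 and 2.05 in excitatory neurons. It was higher in inhibitory neurons within each of the 6 pools, although the ranges overlapped across pools, and the log2 difference was 1.09 ± 0.15 (SE, n = 6 pools, limma adjusted p = 0.0012). *Ndn* passed under all 13 alternative settings, including each pool left out in turn. *Magel2* and *Mkrn3* passed under them too. Every setting but the one with no filter kept the filter that admitted these 2 genes through inhibitory neurons, so for them this adds no support. The largest adjusted p over these settings was 0.0244 for *Magel2*, 0.0252 for *Mkrn3* and 0.00561 for *Ndn*.

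The other members differed far less between the classes. *Snrpn* averaged 82.2, 75.5, 49.5, 55.2, 55.2 and 65.2 RPKM in inhibitory and 66.8, 70.2, 40.7, 47.6, 42.97 and 59.2 in excitatory neurons, a log2 difference of 0.23 ± 0.07 (SE, n = 6 pools, limma adjusted p = 0.0296). *Snhg14* had 166.5, 162.2, 147.3, 168.1, 183.3 and 165.4 RPKM in inhibitory neurons and 137.3, 152.7, 124.3, 139.4, 145.8 and 143.9 in excitatory ones, a log2 difference of 0.23 ± 0.06 (SE, n = 6 pools, limma adjusted p = 0.0254). Both were higher in inhibitory neurons of all 6 pools, as were 21.4% of all genes tested. Both calls were fragile: without the WT pool on 96-well plates the adjusted p was 0.0809 for *Snrpn* and 0.0696 for *Snhg14*. Calls were also lost without the WT, labelled *Ehmt1*Δ/+ or iTg pool on 384-well plates (0.0786, 0.0578 and 0.0729 for *Snrpn*, and 0.0650, 0.0577 and 0.0629 for *Snhg14*), and that of *Snhg14* without the labelled *Ehmt1*Δ/+; iTg pool (0.0518). *Ube3a* (log2 difference 0.18, limma adjusted p = 0.0690) and *Snurf* (0.14, limma adjusted p = 0.165) did not pass. *Ube3a* did pass in 3 of the 13 alternatives, with 1 added in place of 0.1 (limma adjusted p = 0.0344), the mean of log2(RPKM + 1) (0.0470) and limma's trend (0.0124).

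The inhibitory neurons were then grouped by whichever of *Sst*, *Pvalb* and *Vip*, which mark separate interneuron types, was highest (13 to 25, 10 to 17 and 3 to 12 nuclei a pool, and 86 with none). This grouping was chosen after the class values were seen. *Magel2* and *Mkrn3* parted ways. *Magel2* was above 0 in 64 *Sst*-highest nuclei (52.9%, 95% Clopper-Pearson interval 43.6 to 62.03), in 14 of 85 *Pvalb*-highest nuclei (16.5%, 9.31 to 26.1) and in 14 of 41 *Vip*-highest nuclei. *Mkrn3* was above 0 in 11 (9.09%, 4.63 to 15.7), in 36 of 85 (42.4%, 31.7 to 53.6) and in 1 of 41 in the same order. *Ndn* did not part the types by share, with 75.2, 70.6 and 68.3% above 0.

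Pool means told the same. *Magel2* averaged 3.17, 3.93, 12.8, 7.74, 6.41 and 6.19 RPKM in *Sst*-highest neurons and 1.43, 0.489, 2.71, 0, 0.849 and 0.447 in *Pvalb*-highest neurons. *Mkrn3* averaged 0.672, 0.306, 0.0792, 0.0825, 0.464 and 0.633 RPKM in *Sst*-highest and 0.941, 1.91, 2.23, 0.923, 2.63 and 0.690 in *Pvalb*-highest neurons. For *Magel2* the lowest *Sst*-highest pool (3.17) was above the highest *Pvalb*-highest pool (2.71). For *Mkrn3* the gap was slight, 0.672 in the highest *Sst*-highest pool and 0.690 in the lowest *Pvalb*-highest pool. How many of all genes part these groups in this way was not counted. The mean log2 difference of *Sst*-highest minus *Pvalb*-highest was 3.11 (SD 1.76) for *Magel2*, higher in 6 of 6 pools, and -1.89 (SD 1.36) for *Mkrn3*, lower in 6 of 6. For *Ndn* it was 1.05 (SD 0.63), also higher in 6 of 6 pools. By a two-sided exact permutation test over pools each gave p = 0.0312, the smallest that 6 pools allow, and 0.0938 after adjustment over the 12 comparisons made, so none passed. *Magel2* was also lower in *Pvalb*-highest than in *Vip*-highest neurons in 6 of 6 pools (log2 difference -2.86, SD 0.80, same exact p), and the other 8 comparisons had exact p of 0.0625 or more. The *Vip* group held as few as 3 nuclei in a pool.

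**Figure D2:**
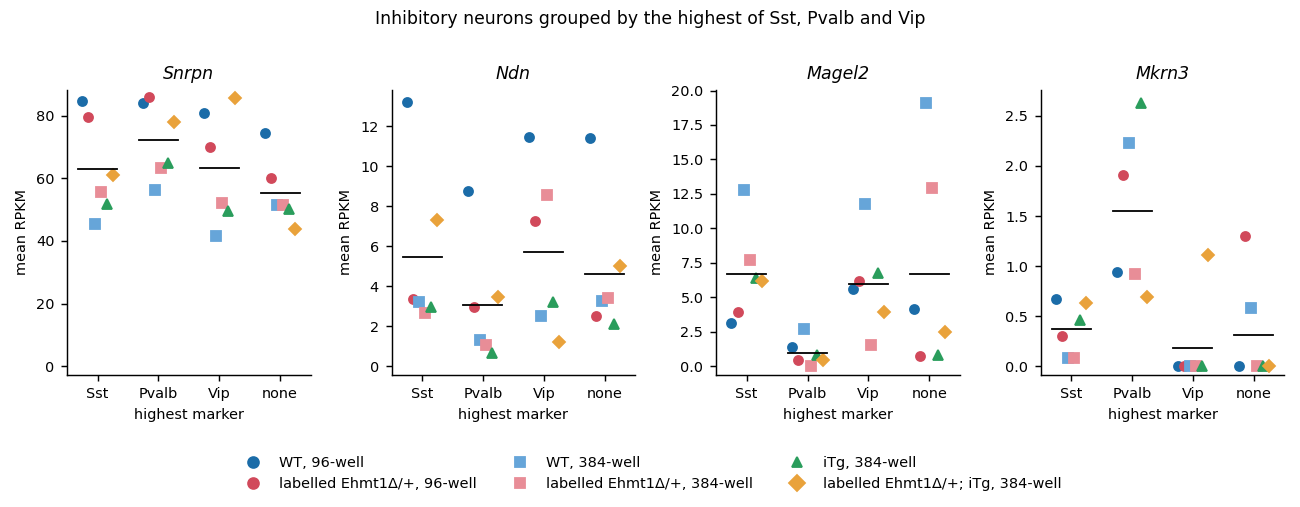
Mean RPKM (linear axis, own scale for each gene) of *Snrpn*, *Ndn*, *Magel2* and *Mkrn3* in inhibitory neurons grouped by the highest of *Sst*, *Pvalb* and *Vip*. Points are pools and bars their mean; *Magel2* averages 6.70 in *Sst*-highest and 0.987 in *Pvalb*-highest neurons, and *Mkrn3* 0.373 and 1.55.

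*Ndn* and *Magel2* are neighbours and were often detected in the same neurons. *Ndn* was above 0 in 97.1, 70.97, 74.5, 75.9, 68 and 81.2% of neurons with *Magel2*, against 83.5, 51.7, 47.01, 40.1, 41.2 and 51.2% of neurons without it. The share was higher beside *Magel2* in all 6 pools. These shares were not thinned, and neurons on 384-well plates had 43592 to 1332269 reads, so deeper nuclei show both genes more readily. Both genes are also higher in inhibitory neurons, and the parts of depth and class in this were not tested. *Magel2* and *Mkrn3* were seen together in 0 to 3 neurons of a pool.

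The comparison the study was built for, labelled *Ehmt1*Δ/+ against WT, was made in neurons with limma over all 6 pools, with terms for plate format, genotype label, active transgene and their interaction. Of 24519 genes tested, 0 (0%) passed the adjusted threshold, and 2414 (9.85%) had an unadjusted p under 0.05. Of the 6 members tested, none passed and 1, *Magel2*, had an unadjusted p under 0.05. *Mkrn3* and *Peg12* were in too few nuclei to be tested. The fit left 1 residual degree of freedom, and in a pool mean fewer cells of a type and less RNA per cell cannot be told apart.

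*Magel2* was 1.22 RPKM in WT and 0.744 in labelled *Ehmt1*Δ/+ neurons on 96-well plates, and 3.88 and 1.75 on 384-well plates. With the transgene active it was 2.46 and 0.961. It was the lower of the pair in all 3, the log2 differences being -0.64, -1.10 and -1.27, and it was the only member to be so, as were 13.6% of all genes. The test gave -0.87 ± 0.16 (SE, 4 pools without the active transgene, limma p = 0.0078, adjusted p = 0.488). Over all 3 pairs, where 0 genes passed and 5.14% had an unadjusted p under 0.05, it gave -1.01 ± 0.18 (limma p = 0.0025, adjusted p = 0.794).

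Several measures are set beside the *Magel2* difference here, and the part of each in it was not tested. Inhibitory neurons, where *Magel2* is higher, made up 24.5% of neurons in the WT and 16.4% in the labelled *Ehmt1*Δ/+ pool on 96-well plates, 25.8 and 17.05% on 384-well plates, and 19.4 and 17.9% with the transgene active. Within inhibitory neurons alone the log2 differences were -0.40, -0.75 and -0.27, and within excitatory neurons -0.40, -0.60 and -1.85. The fit on inhibitory neurons alone gave -0.58 (limma adjusted p = 0.887). Without the nucleus with the highest value in each pool, a setting added after the data were seen, the third pair moved from -1.27 to -0.40. Under 1 of the 3 plate codes that the labels give for both genotypes on 96-well plates, *Magel2* was higher in the labelled *Ehmt1*Δ/+ nuclei (log2 difference 0.47). A code covers more nuclei than 1 plate has wells, so it does not stand for a shared plate.

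*Ndn* differed most on 96-well plates. It was 6.49 RPKM in WT and 2.04 in labelled *Ehmt1*Δ/+ neurons there (log2 difference -1.62), 1.64 and 1.33 on 384-well plates (-0.29) and 1.54 and 2.50 with the transgene active (0.66). By plate code, WT neurons averaged 6.04, 7.46, 6.47 and 5.99 RPKM and labelled *Ehmt1*Δ/+ neurons 2.71, 1.56, 1.84 and 2.14, with no overlap. The codes only divide the nuclei of a pool, so they are not replicates and restate the difference between these pools. The same held for glia, with 2.36 to 5.12 RPKM in WT microglia against 0 to 0.607, and 2.36 to 3.901 in WT oligodendrocytes against 0 to 1.76. Over both formats the test gave -0.96 ± 0.37 (SE, 4 pools, limma adjusted p = 0.537), and without the 96-well WT pool the difference was -0.29. That is the pool whose glia held *Snap25*, and its part in the *Ndn* difference was not tested.

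**Figure D3:**
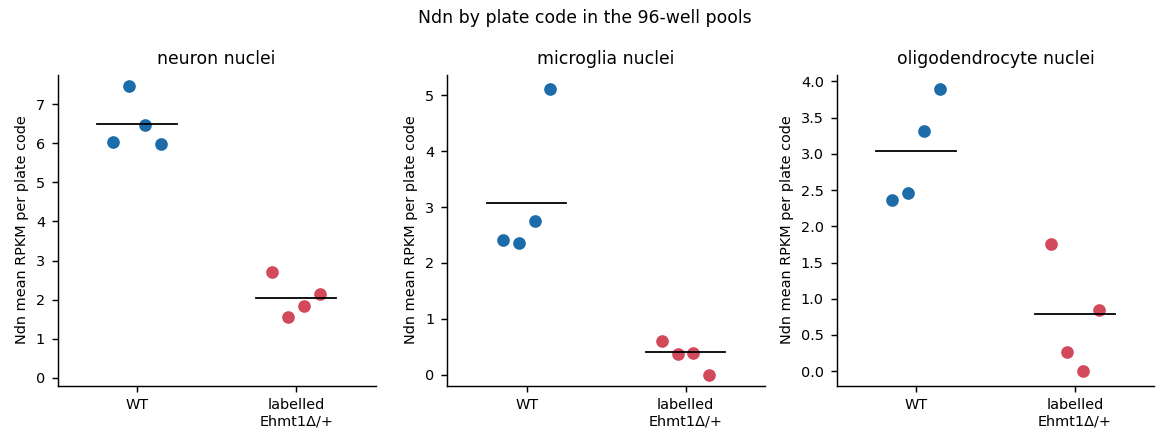
*Ndn* mean RPKM (linear axis) under each plate code of the WT and labelled *Ehmt1*Δ/+ pools on 96-well plates, by cell type label. Each point is 1 plate code, a part of the nuclei of its pool and not a replicate, and each bar is the pool mean. In neurons the 4 WT points sit between 5.99 and 7.46 and the 4 labelled *Ehmt1*Δ/+ points between 1.56 and 2.71.

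*Ube3a* and *Snrpn* were higher in the labelled *Ehmt1*Δ/+ pool of all 3 pairs, as were 17.7% of all genes. For *Ube3a* the log2 differences were 0.16, 0.27 and 0.99, and for *Snrpn* 0.01, 0.18 and 0.40. Neither passed (limma adjusted p = 0.588 for *Ube3a* and 0.811 for *Snrpn*). *Snhg14*, the antisense partner of *Ube3a*, had log2 differences of 0.10, 0.15 and -0.06 (limma adjusted p = 0.732), and *Snurf* of -0.17, -0.18 and 0.14 (limma adjusted p = 0.632).

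**Figure D4:**
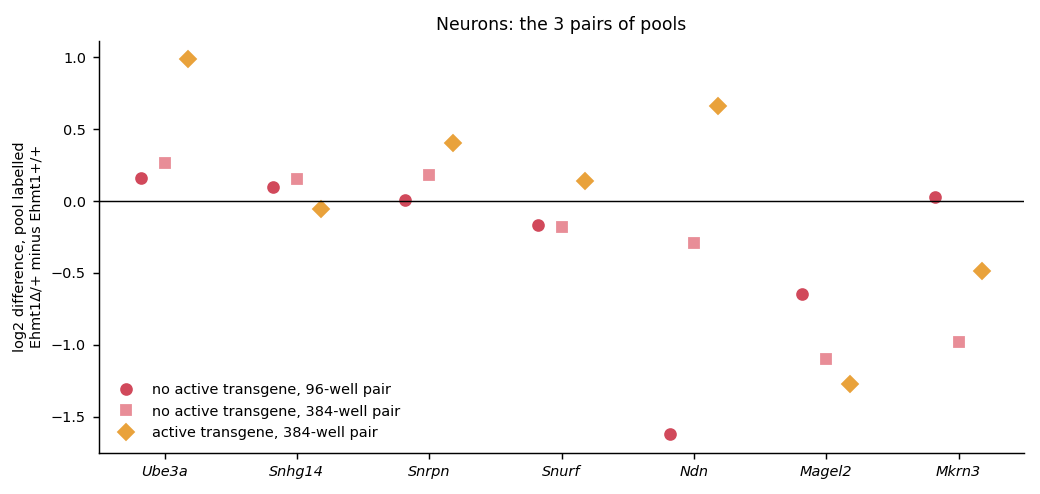
Log2 differences in neuron pool means, pool labelled *Ehmt1*Δ/+ minus its *Ehmt1*+/+ partner, for the 3 pairs of pools. *Magel2* is below 0 in all 3 pairs (-0.64, -1.10 and -1.27), and *Ube3a* reaches 0.99 only in the pair with the active transgene.

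Glia gave less. In microglia 0 of 15530 genes (0%) passed limma's adjusted threshold and 1.68% had an unadjusted p under 0.05; in oligodendrocytes 0 of 14139 (0%) passed and 4.41% had an unadjusted p under 0.05. No member tested had an unadjusted p under 0.05 in either. In microglia *Ube3a*, *Snhg14* and *Snrpn* could be tested, and their log2 differences were 0.40, 0.995 and -0.14. In oligodendrocytes the 5 tested were *Ube3a* (0.23), *Snhg14* (1.03 ± 0.54, limma adjusted p = 0.894), *Snrpn* (-0.11), *Snurf* (0.45) and *Mkrn3* (-0.22).

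The transgene comparison asked whether these genes differed between neurons with and without the active transgene. *Ehmt1* RNA itself was 31.7 RPKM without and 33.9 with it in labelled *Ehmt1*Δ/+ neurons, and 19.5 and 20.7 in WT neurons. The RNA values thus do not plainly show the supply of GLP. In neurons labelled *Ehmt1*Δ/+, with against without the active transgene, 0 of 24519 genes (0%) passed limma's adjusted threshold and 27.6% had an unadjusted p under 0.05. This contrast sets 1 pool against 1, and the spread is borrowed from the WT and labelled *Ehmt1*Δ/+ pools. *Ube3a* was 23.7 RPKM without and 40.97 with the active transgene, a log2 difference of 0.81 ± 0.14 (limma p = 0.0066, adjusted p = 0.109). *Magel2* was 1.75 and 0.961 (-0.92 ± 0.21, limma p = 0.0160), and *Ndn* 1.33 and 2.50 (1.20 ± 0.49). The median over all genes was itself 0.17, and with pools scaled to a common median *Ube3a* stood at 0.63 (limma adjusted p = 0.154). *Snap25* was also higher in that pool, 1.84 times its level in the labelled *Ehmt1*Δ/+ pool without the active transgene, and its part in the *Ube3a* value was not tested.

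In WT neurons the active transgene went with little. Again 0 genes (0%) passed limma's adjusted threshold, 10.1% had an unadjusted p under 0.05, and no member did. *Ube3a* was 19.7 RPKM without and 20.6 with the transgene (log2 difference 0.04). The interaction, which asks whether the genotype difference was the same with and without the active transgene, gave 0 genes (0%) past limma's adjusted threshold and 27.1% with an unadjusted p under 0.05. *Ube3a* was the 1 member among the latter, at 0.77 ± 0.18 (limma p = 0.0179, adjusted p = 0.131), beside a median of 0.28 over all genes and 0.47 after scaling.

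Genes around and related to the locus were read in the same fits. The flanking genes of the same chromosome, which are not imprinted in most tissues, split between the neuron classes. Of 15 tested, 3 passed higher in inhibitory neurons (*Gabrg3* by 1.41 and *Chrna7* by 1.14 on the log2 scale, both receptor subunits, and *Tubgcp5* by 0.28) and 6 lower. The lower ones included *Apba2* (-0.98), an adaptor of synaptic vesicles, and the GABA receptor subunit *Gabra5* (-0.75), with *Klf13* (-0.92), *Tjp1* (-0.54) and *Otud7a* (-0.43). Their median was -0.14, beside 0.02 over all genes. Of all 25968 genes tested, 21% passed higher in inhibitory neurons and 4937 passed lower. Among 10 MAGE family genes and partners, *Maged2* (1.37) and *Maged1* (0.69) passed higher in inhibitory neurons (20%, beside 21% of all genes) and *Nsmce3* (-0.49) lower, with a median of 0.20.

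Among 11 Sm core and related spliceosomal genes, *Snrpa* (0.29), which is not itself an Sm core gene, passed higher. The Sm core gene *Snrpd3* (-0.59) passed lower, and the list median was -0.01. Of 8 partners of UBE3A, *Arc* (-3.70), a synaptic activity-induced gene, and *Mapk6* (-0.37) passed lower in inhibitory neurons, and the list median was 0.00. Of 16 regulators of imprints, *Zfp57* (0.94), the zinc-finger protein that guards imprinted methylation, and *Dnmt1* (0.25) passed higher and *Arid4a* (-0.30) lower, with a median of 0.04. Beside these lists, 21% of all genes passed higher and 4937 of 25968 passed lower. Of the snoRNAs of the region tested, 23 (12.6%) passed higher in inhibitory neurons, beside 21% of all genes, and 0 lower, *Gm26498* by 0.39 and *Gm22496* by 0.33 among them, with a median of 0.18. Over all region RNAs tested, 31 (14.5%) passed higher and 5 (2.34%) lower.

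Between labelled *Ehmt1*Δ/+ and WT neurons no gene of any of these lists passed. At an unadjusted p under 0.05 there were 0 higher and 1 lower of 15 flanking genes, and 0 and 2 of 10 MAGE genes. The counts were 0 and 0 of 11 Sm core genes, 0 and 0 of 8 UBE3A partners and 1 and 0 of 16 imprint regulators. Among the region RNAs tested, by far the longest of these lists, they were 5 and 1. Of all 24519 genes tested, 790 were higher and 1624 lower at this threshold, together 9.85%. The list medians lay between -0.15 and 0.03 on the log2 scale, beside -0.03 over all genes. *Gm24966*, the region RNA with the highest neuron mean, had a log2 difference of 0.09.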

How the data were processed

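Nuclei were sorted into wells and their total RNA was sequenced by RamDA-seq. The authors trimmed adapters with Fastq-mcf, aligned with HISAT2 (2.0.4) to mm10, counted over Gencode genes with featureCounts (Subread 1.5.0) at default settings, and deposited 1 RPKM table per plate format, with a value for each gene in each nucleus. The study itself tested nuclei as replicates; here the mean RPKM over the nuclei of a pool was the unit.

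The 8 members and the related gene lists were chosen with earlier results of these data known. A gene entered a fit where, in both plate formats, 1 pool or more had it above 0 in 10% of nuclei, and was tested with limma 3.58.1 (R 4.3.3) on log2(mean RPKM + 0.1), which understates changes of low genes. Terms were plate format, genotype label, active transgene and their interaction, or pool and class for neuron classes. P-values were adjusted by Benjamini-Hochberg over all genes, with a threshold of 0.05, and the fits were tested on simulated data. Shares above 0 have 95% Clopper-Pearson intervals, and a share of 0 allows 3 counts of the total. Reads per nucleus were recovered from the RPKM steps of low genes: *Ndn*, *Magel2*, *Mkrn3* and *Peg12* gave whole reads in 100% of values, *Snrpn* in 16.4%, *Snurf* in 28.0%, *Ube3a* in 38.5% and *Snhg14* in 9.97%, so no count test was run. To compare shares, nuclei were thinned by calculation to 298761 reads (96-well) or 48585 reads (384-well).

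All 8 members were named. Of each list the text names the genes called or, where none was, up to 4 with the highest neuron means; for the RNAs of the region, with 36 called between classes, only those 4. Some list genes and markers are not reported here. Alternatives were the pseudocount (0.01 or 1), no filter, scaling to a common median, the mean of log2(RPKM + 1), limma's trend, stricter classes and each pool left out. Promoter sequences are from RefSeq on GRCm38.p6.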

Additional observations from a re-analysis of the deposited data

Results flagged for a closer look

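For 3 genes the difference between labelled *Ehmt1*Δ/+ and WT neurons had one sign in both pairs of pools without the active transgene and the other sign in the pair with it. The interaction on the log2 scale was 1.62 for *Ndn* (pair differences -1.62, -0.29 and 0.66), 0.32 for *Snurf* (-0.17, -0.18 and 0.14) and -0.18 for *Snhg14* (0.10, 0.15 and -0.06). None passed limma's threshold, the adjusted p being 0.217 for *Ndn*, 0.321 for *Snurf* and 0.548 for *Snhg14*. The pair with the transgene is 1 pool against 1, and the median of this interaction over all genes was 0.28. After scaling the pools to a common median the value was 1.32 for *Ndn*, 0.01 for *Snurf* and -0.48 for *Snhg14*.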

How the results depend on the processing

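No paired analysis was possible because the labels number no mice, and a pool number only names a pool; the class test blocks by pool by design. Of the results that answer a comparison, 60 alternatives kept the call count or share close to the main value, though not always equal to it. Among these 60, for example, 11565 genes passed between classes with the mean of log2(RPKM + 1), against 10396 in the main fit. In oligodendrocytes 6 genes passed with the mean of log2(RPKM + 1) and 1 with limma's trend, over the 3 pairs 1 passed after scaling, and for the transgene in labelled *Ehmt1*Δ/+ neurons 637 passed with the trend, *Ube3a* among them (adjusted p = 0.0458). With nuclei holding only 1 of *Slc17a7* and *Gad1*, 5847 genes passed between classes in place of 10396; leaving out a pool gave 8665 to 9357. There *Snrpn* (adjusted p = 0.14) and *Snhg14* (0.261) no longer passed, and after scaling they stood at 0.0583 and 0.0515. Thinning moved the *Ndn* shares of the 384-well pools to 19.7, 15.8, 17.8 and 26.1%. Scaling moved the genes with an unadjusted p under 0.05 in labelled *Ehmt1*Δ/+ against WT neurons from 790 higher and 1624 lower to 1200 and 1160.

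Some values that passed no test changed sign; the cause was not tested. In neurons these were *Magel2* (0.47) and *Snurf* (0.10) under one plate code of the 96-well format, *Snrpn* (-0.046) under another, and *Ndn* over the 3 pairs, which ran from -0.96 to 0.19 as pools were left out. In microglia *Snrpn* was 1.24 with a pseudocount of 0.01 and ran from -1.83 to 1.55 over pools left out. In oligodendrocytes leaving out pools gave -0.029 to 0.48 for *Ube3a*, -0.45 to 0.013 for *Mkrn3*, -0.42 to 0.20 for *Snrpn* and -0.28 to 1.19 for *Snurf*. For the transgene in labelled *Ehmt1*Δ/+ neurons scaling gave -0.14 for *Snhg14* and -0.0078 for *Snurf*. With the mean of log2(RPKM + 1), the transgene difference in WT neurons was -0.013 for *Ube3a* and -0.057 for *Snrpn*, and the interaction of *Magel2* was 0.19. Few microglia per pool (16 to 36) and shallow 384-well glia limit the glial comparisons.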

Other observations

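As a description, with no test, the genes whose pattern over the 18 means (6 pools by 3 cell type labels) was most like that of a member were searched among 13532 genes. These means share libraries and plate formats, and any neuronal gene follows part of the pattern. *Snrpn* was closest to *Gnl3l* (Pearson r = 0.990) and *Wasf1* (0.977), and *Snurf* to *Lrrn3* (0.98) and *Sgtb* (0.974). *Ube3a* was closest to *Ppm1e* (0.981) and *Dync1i2* (0.975), and *Snhg14* to *Hivep2* (0.989) and *Ryr2* (0.981). *Ndn*, with closest values of 0.880 (*Zmynd19*) and 0.855 (*Timm29*), had the loosest match of the 5 genes searched.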
